A study of Mus musculus with 4 samples.

Results

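The autophagy machinery comprises the proteins that build a double membrane around cytoplasm and deliver it to the lysosome. The 40 genes described here were taken from the deposited table by name: protein-coding entries that carry an Atg number, Ulk1 to Ulk4, the Wipi, Map1lc3 and Gabarap genes, and 10 further genes from Rb1cc1 to Tax1bp1. They are 40 of 31600 features and of 18287 protein-coding features in the table. No other feature class carried a matching symbol. One member, Atg4a-ps, is entered as protein-coding although its symbol marks a pseudogene.

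The RNA came from mouse spermatogonial stem cells, which renew themselves in the testis and give rise to sperm, and was sequenced as 2 libraries labelled Differ (differentiation) and 2 labelled Control. The labels enter "Differentiation" for the Differ libraries and "WT" for the Control libraries under genotype, and both groups carry the same cell type label. The sources used here do not say how or for how long differentiation was induced, in which animals, or whether replicate libraries stem from separate cultures. The p-values therefore measure only the spread between these libraries, which may be technical. Values are FPKM (fragments relative to exon length and sequencing depth), and the steps between low values corresponded to 17771910 and 20362290 fragments in the Differ libraries and 19460290 and 20650090 in the Control libraries.

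Autophagy starts with a kinase complex of ULK1 or ULK2 with ATG13, ATG101 and RB1CC1 (FIP200). A class III PI3-kinase complex then marks the growing membrane with PI3P, ATG9 and ATG2 supply lipid, and a pair of ubiquitin-like conjugation systems attach ATG8 proteins (the LC3 and GABARAP families) to the membrane, where they bind cargo receptors such as SQSTM1. In the mouse testis, autophagy genes are known to be needed for the acrosome of the spermatid and in the cells that support germ cells.

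The germ cell markers Ddx4, Dazl, Tex101, Mael, Tdrd1 and Piwil2 summed to 1028 and 1034 FPKM in the Differ libraries and 522 and 519 FPKM in the Control libraries, so both groups carry germ cell RNA. Markers of undifferentiated spermatogonia summed to 56.6 and 56.0 FPKM in Differ and 165 and 170 FPKM in Control (12 of 15 tested members lower, 1 higher). Spermatocyte markers summed to 1160 and 1178 FPKM in Differ, against 177 and 182 FPKM in Control (12 of 13 higher, 0 lower). Fibroblast and peritubular markers summed to 132 and 124 FPKM in Differ and 382 and 385 FPKM in Control (0 of 13 higher, 12 lower), and macrophage markers to 19.3 and 18.5 FPKM in Differ and 74.3 and 69.9 FPKM in Control (0 of 10 higher, 9 lower). Markers of differentiating spermatogonia summed to 205.9 and 209.7 FPKM in Differ and 405 and 399 FPKM in Control (1 of 8 higher, 6 lower), and spermatid markers to 26.4 and 27.8 FPKM in Differ and 9.66 and 7.74 FPKM in Control (5 of 8 higher, 0 lower). Most of the spermatid sum in Differ came from Acr and Zpbp, with Differ means of 9.42 and 9.85 FPKM. Prm1 and Tnp2 were called higher on 10 to 17 fragments per Differ library and 2 to 5 per Control library. Izumo1 and Tssk2 were lower in both Differ libraries than in either Control library but were not called. Odf1, Akap4, Catsper1 and Prm2 were too low to test. Whether spermatids were present was not tested. Of 4 Leydig, 6 Sertoli and 4 endothelial markers tested, 1, 3 and 0 were higher and 2, 2 and 1 lower. Within the Leydig list Cyp11a1 and Hsd3b1 fell while Star rose (log2 fold changes -2.35, -2.69 and 0.73). No marker of any of these lists was at 0 in a whole group. These shifts lie between the same libraries as every difference below and their part in the results was not tested. In such bulk samples fewer cells of a type and less RNA per cell cannot be told apart.

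The machinery did not change as a block. Ulk2, Rb1cc1, Atg9a, Becn1, Atg4c and Gabarap had the 6 highest log2 fold changes of FPKM + 1, with Differ means 1.61 to 3.87 times those in Control. The Becn1 exons overlap those of a gene on the opposite strand, and a change of Becn1 cannot be told apart from that gene's increase, as treated below. Atg101, Pik3c3, Atg16l1 and Atg5 had the 4 lowest, with Control means 1.45 to 1.64 times those in Differ. The summed level of all members was 479 and 483 FPKM in Differ, against 394 and 392 FPKM in Control. Of the 39 members with a mean of at least 0.5 FPKM, 16 rose, 8 fell and 15 did not pass the threshold of limma adjusted p below 0.05. The test was limma on log2(FPKM + 1), two-sided, fitted to 23138 features with Benjamini-Hochberg adjustment over all of them.

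Across all tested features, 29.6% rose and 27.0% fell by the same rule, while 41.0% of the tested members rose and 20.5% fell. Among protein-coding features alone, the class of all members, 32.5% rose and 34.0% fell. The median log2 fold change was 0.08 over the members, 0.01 over all tested features and -0.03 over protein-coding ones. An increase of at least 1 on the log2 scale was passed by 3 members, against 9.70% of all features, and a decrease of that size by 0 members, against 4.40% of all features. With limma-voom on recovered fragments, 17 members rose (31.0% of all features) and 11 fell (31.4%), with 62.4% of all features called in either direction. The authors' deposited table gave 17 members as higher and 11 lower at an adjusted p below 0.05, beside 42.3% of its features called in either direction. The groups did not overlap in 35 of the 39, or 89.7%, against 79.9% of all features and 87.9% of protein-coding features, which is near the members' share. Leaving out 1 library at a time gave 15 higher members each time but between 3 and 5 lower ones: 5 without either Control library, 3 without Differ library 1 and 4 without Differ library 2.

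**Figure D1:**
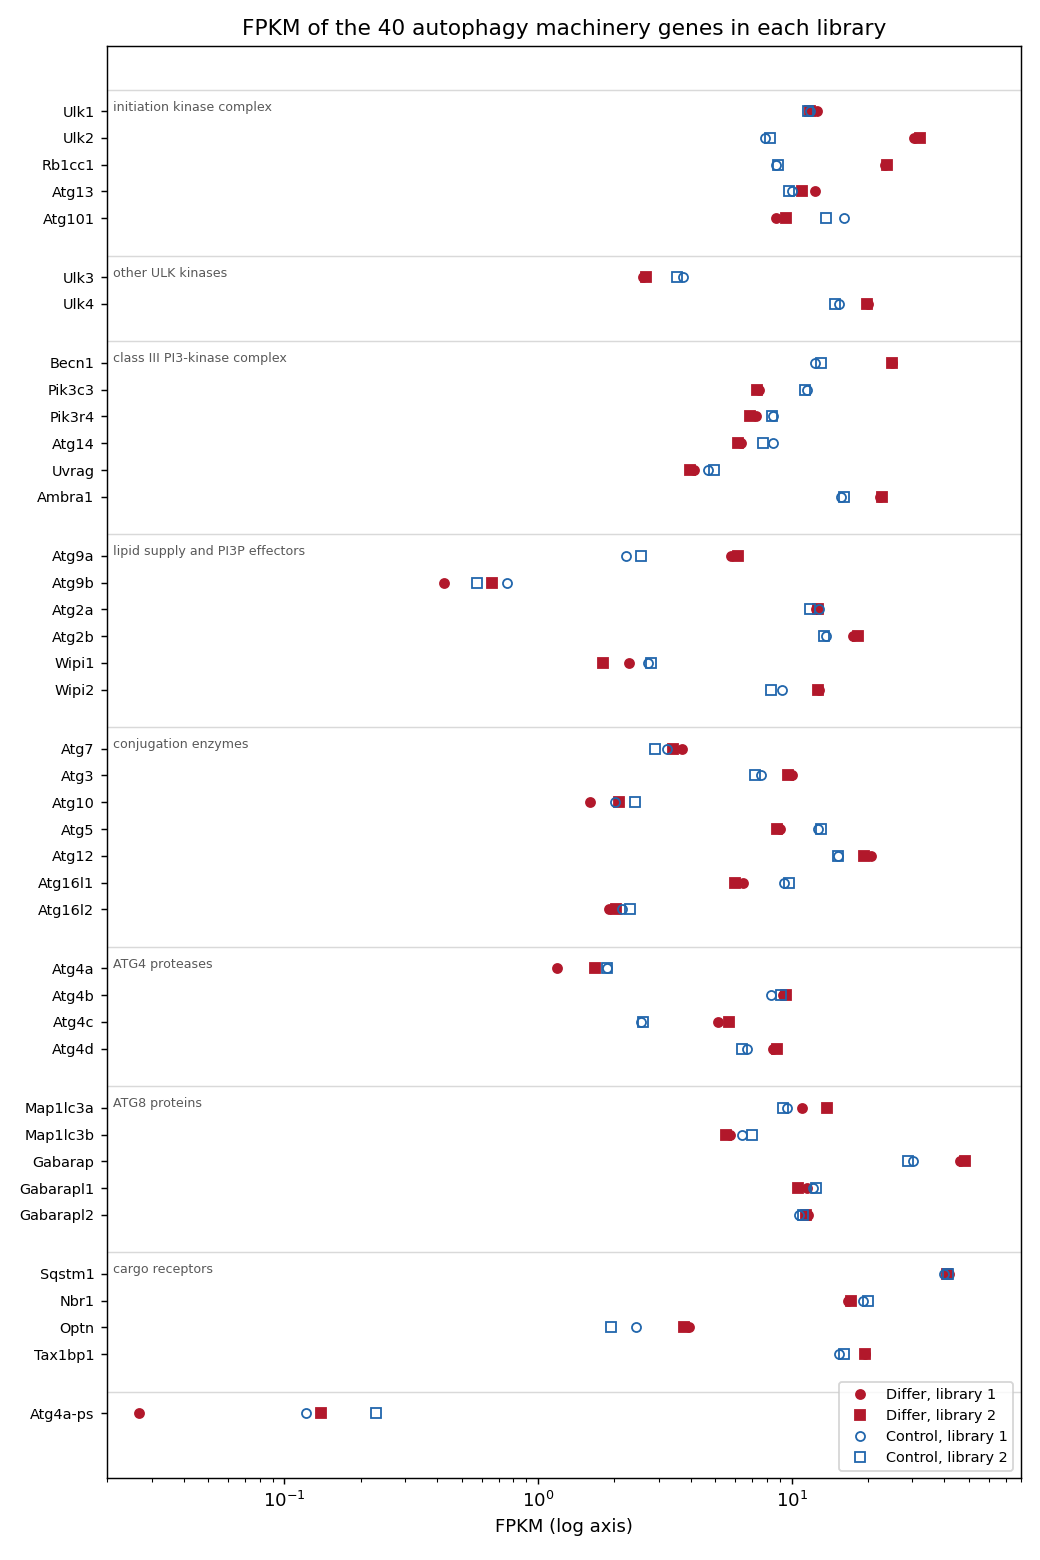
FPKM (log axis) of each of the 40 genes in the 2 Differ libraries (filled) and the 2 Control libraries (open), grouped by role. Ulk2 and Rb1cc1 stand far apart between the groups, while Sqstm1 and Ulk1 lie close together in all 4 libraries.

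Within the initiation complex, Ulk2 and Rb1cc1 rose, Atg101 fell and Ulk1 did not pass. Ulk2 (ENSMUSG00000004798; GRCm38 chromosome 11, 61775649 to 61855073, minus strand), one of the pair of starting kinases, had 30.3 and 32.0 FPKM in the Differ libraries, against 7.87 and 8.21 FPKM in the Control libraries. Both Differ values lie far above both Control values, and the log2 fold change was 1.83 (SE 0.05; limma adjusted p = 1.22e-04). Its paralog Ulk1 had 12.6 and 11.8 FPKM in Differ and 11.8 and 11.7 FPKM in Control (log2 fold change 0.06, SE 0.05; limma adjusted p = 0.363). The Ulk2 to Ulk1 ratio within a library was 2.39 and 2.70 in Differ and 0.666 and 0.704 in Control. Ulk2 was therefore the more abundant RNA of the pair per exon length in both Differ libraries, and Ulk1 in both Control libraries.

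The promoter windows of this pair, from 250 bases before to 50 after the RefSeq start (GRCm38.p6, given 5′ to 3′ on the gene's strand), are shown because the paralogs differed in response. Ulk2 lies at chr11:61855043-61855342 and Ulk1 at chr5:110810032-110810331, both on the minus strand. Capitals would mark CACGTG (the E-box core), TGACGTCA (the full cAMP response element), TAACNG (the MYB core), CCGGAAG (the ETS core) or CCAAT on either strand, and neither window holds any of these letters. G and C make up 74.7% of the Ulk2 window and 68.0% of the Ulk1 window.
Ulk2: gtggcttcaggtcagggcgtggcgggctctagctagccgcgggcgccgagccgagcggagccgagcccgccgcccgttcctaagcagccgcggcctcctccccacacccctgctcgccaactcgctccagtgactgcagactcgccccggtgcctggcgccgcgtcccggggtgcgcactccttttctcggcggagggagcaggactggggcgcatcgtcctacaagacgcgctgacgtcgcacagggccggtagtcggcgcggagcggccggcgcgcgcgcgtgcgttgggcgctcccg
Ulk1: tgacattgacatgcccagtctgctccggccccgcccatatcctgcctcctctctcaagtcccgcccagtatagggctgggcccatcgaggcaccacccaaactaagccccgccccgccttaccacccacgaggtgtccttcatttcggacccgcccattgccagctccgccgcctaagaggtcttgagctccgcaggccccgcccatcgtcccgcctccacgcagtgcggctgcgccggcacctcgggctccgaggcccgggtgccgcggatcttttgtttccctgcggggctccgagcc

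Rb1cc1 (chromosome 1, 6206197 to 6276648, plus strand), the large scaffold of the complex (FIP200), had 23.3 and 23.9 FPKM in Differ, against 8.69 and 8.81 FPKM in Control, without overlap. Its log2 fold change was 1.33 (SE 0.04; limma adjusted p = 1.40e-04). The adaptor gene Atg13 had 12.4 and 11.0 FPKM in Differ and 10.0 and 9.76 FPKM in Control (log2 fold change 0.22, SE 0.07; limma adjusted p = 0.0496). That call was lost without Control library 1, Control library 2 or Differ library 1 (limma adjusted p = 0.122, 0.161 and 0.121), and under 5 other settings. Atg101 (chromosome 15, 101284272 to 101290945, plus strand), which stabilises ATG13, went the other way, with 8.65 and 9.50 FPKM in Differ and 16.2 and 13.7 FPKM in Control (log2 fold change -0.66, SE 0.10; limma adjusted p = 6.78e-03). The spread between its Control libraries is wide, and without Differ library 1 the call ended (limma adjusted p = 0.0569). Summed over the 5 genes, the complex was at 87.2 and 88.2 FPKM in Differ and 54.5 and 52.1 FPKM in Control.

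The other ULK-family kinases went opposite ways. Ulk3, known for roles in autophagy and Hedgehog signalling, had 2.60 and 2.67 FPKM in Differ and 3.73 and 3.53 FPKM in Control (log2 fold change -0.35; limma adjusted p = 0.0212), a call that ended when any 1 of the 4 libraries was left out (limma adjusted p from 0.0740 to 0.109). Ulk4, a pseudokinase, had 20.0 and 19.8 FPKM in Differ and 15.4 and 14.8 FPKM in Control (log2 fold change 0.37; limma adjusted p = 2.17e-03). The Ulk4 exons overlap those of a gene on the opposite strand, treated below.

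**Figure D2:**
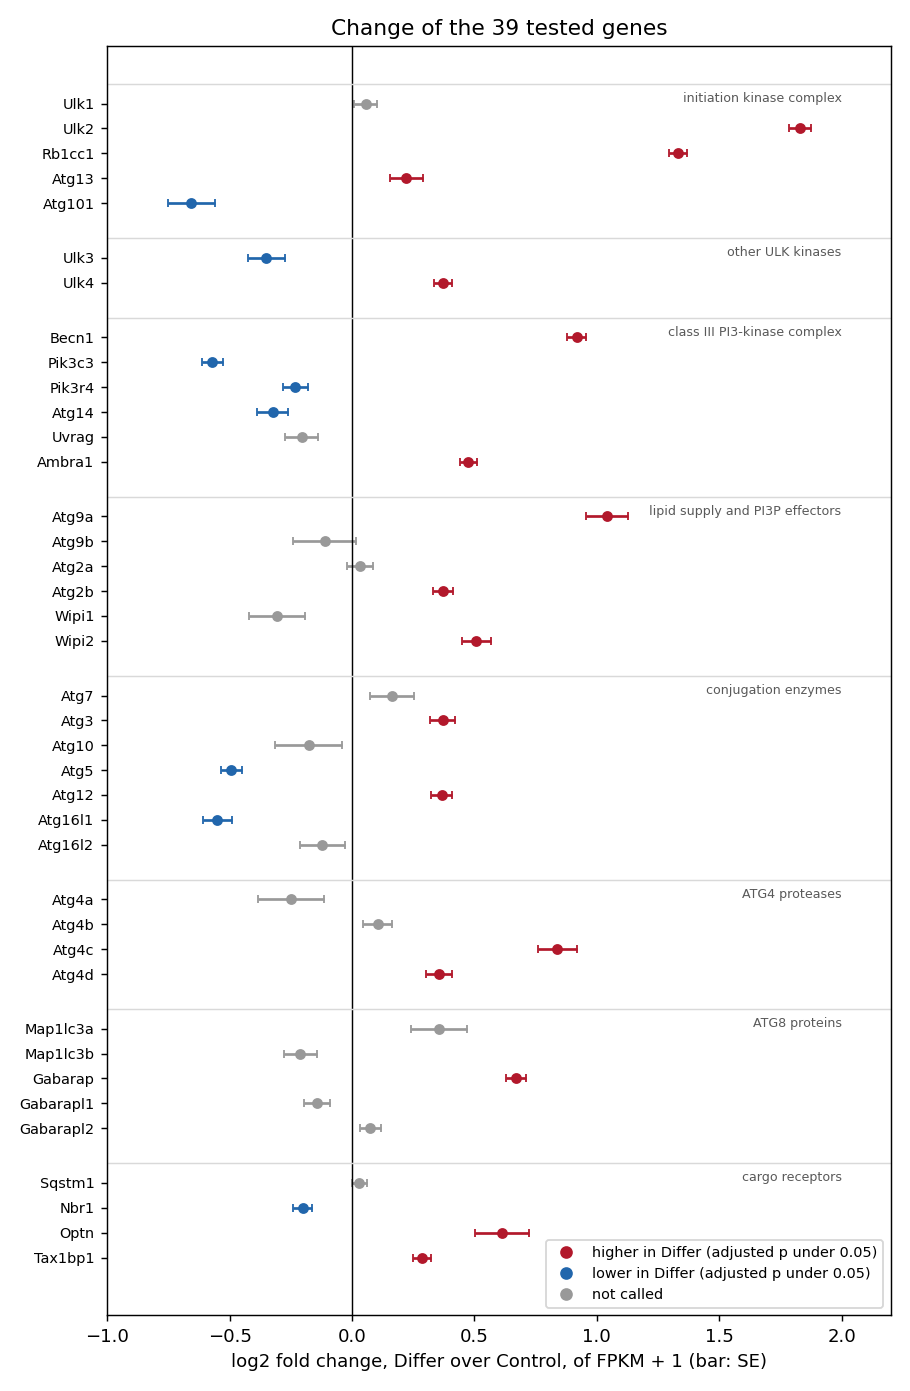
log2 fold change, Differ over Control, of FPKM + 1 for the 39 tested genes with standard errors, coloured by the limma call. Every role group holds genes on both sides of 0, and the genes range from 1.83 for Ulk2 to -0.66 for Atg101.

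The class III PI3-kinase complex also split. The catalytic subunit Pik3c3 (VPS34) had 7.43 and 7.28 FPKM in Differ, against 11.5 and 11.3 FPKM in Control (log2 fold change -0.57, SE 0.04; limma adjusted p = 1.08e-03). The regulatory kinase subunit Pik3r4 had 7.25 and 6.84 FPKM in Differ and 8.48 and 8.39 FPKM in Control (log2 fold change -0.23; limma adjusted p = 0.0222). Atg14, which directs the complex to the forming autophagosome, had 6.30 and 6.15 FPKM in Differ and 8.42 and 7.69 FPKM in Control (log2 fold change -0.32; limma adjusted p = 0.0146). All 3 were lower in both Differ libraries than in either Control library. The Pik3r4 call ended when any 1 library was left out (limma adjusted p from 0.0508 to 0.0963), and the Atg14 call without Control library 1, Differ library 1 or Differ library 2 (limma adjusted p = 0.0639, 0.0702 and 0.0825). Uvrag, the ATG14 alternative of the endosomal complex, had 4.11 and 3.98 FPKM in Differ and 4.70 and 4.94 FPKM in Control and did not pass (log2 fold change -0.21; limma adjusted p = 0.0576). It passed under 5 other settings.

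Becn1 and Ambra1 rose in the deposited values. Becn1 (chromosome 11, 101285952 to 101302286, minus strand), the scaffold subunit beclin 1, had 25.0 FPKM in both Differ libraries and 12.4 and 13.1 FPKM in the Control libraries (log2 fold change 0.92, SE 0.04; limma adjusted p = 3.10e-04). Ambra1, a beclin 1 partner that also acts in ubiquitin ligase complexes, had 22.2 and 22.7 FPKM in Differ and 15.7 and 16.1 FPKM in Control (log2 fold change 0.48; limma adjusted p = 9.79e-04).

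Becn1 overlaps a neighbour on the opposite strand. In GENCODE M21 its exons share 3104 bases with those of Cntd1, a gene of meiotic crossover formation, which is 43.9% of the Becn1 exonic bases and 70.2% of those of Cntd1. Cntd1 had 37.0 and 39.0 FPKM in Differ and 10.6 and 10.9 FPKM in Control. For most features of this kind the table gave values close to those of the gene on the other strand, though not for all. Of 122 features that lie at least 95% inside exons of an opposite-strand gene above 5 FPKM, 117 were in the table, and their FPKM was a median of 1.05 times that of the host gene (quartiles 0.564 and 1.64). Some lay far below it, such as Cldn22 at 0.663 FPKM inside Wwc2 at 9.53 FPKM, an example chosen after its values were seen. Across these 117 features the log2 changes of feature and host had a Pearson's r of 0.948, a description only, since both may share reads. Of 19 features inside a gene on the same strand, 1 was in the table.

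If each shared base was counted for both genes and coverage was even over all annotated exons, the deposited values resolve to 12.6 and 11.4 FPKM for Becn1 in Differ and 11.2 and 12.1 FPKM in Control, which overlap. The corresponding Cntd1 estimates are 28.1 and 31.0 FPKM in Differ and 2.69 and 2.38 FPKM in Control. Whether reads were in fact counted for both genes was not tested, so a change of Becn1 and the increase of Cntd1 cannot be told apart in the table. The same estimate gives Ulk4, which shares 759 bases with Ctnnb1 (beta-catenin, at 84.2 and 83.5 FPKM in Differ and 84.2 and 82.4 FPKM in Control), 12.6 and 12.5 FPKM in Differ and 8.01 and 7.57 FPKM in Control, still without overlap. For Atg4d, which shares 1405 bases with Kri1, it gives a mean of 7.45 FPKM in Differ and 5.59 FPKM in Control. For Sqstm1 it cannot be used: it turned the partner Mrnip negative, so at least 1 of its assumptions, counting for both genes or even coverage, does not hold for the 580 shared bases. In all, 6 members share at least 5% of their exonic bases with an opposite-strand protein-coding gene, 5 of them tested. Among the other 34 tested members 13 rose and 8 fell. Gabarapl1, Uvrag and Atg14 share 28.3%, 17.6% and 5.53% of their exonic bases with opposite-strand non-coding features.

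**Figure D3:**
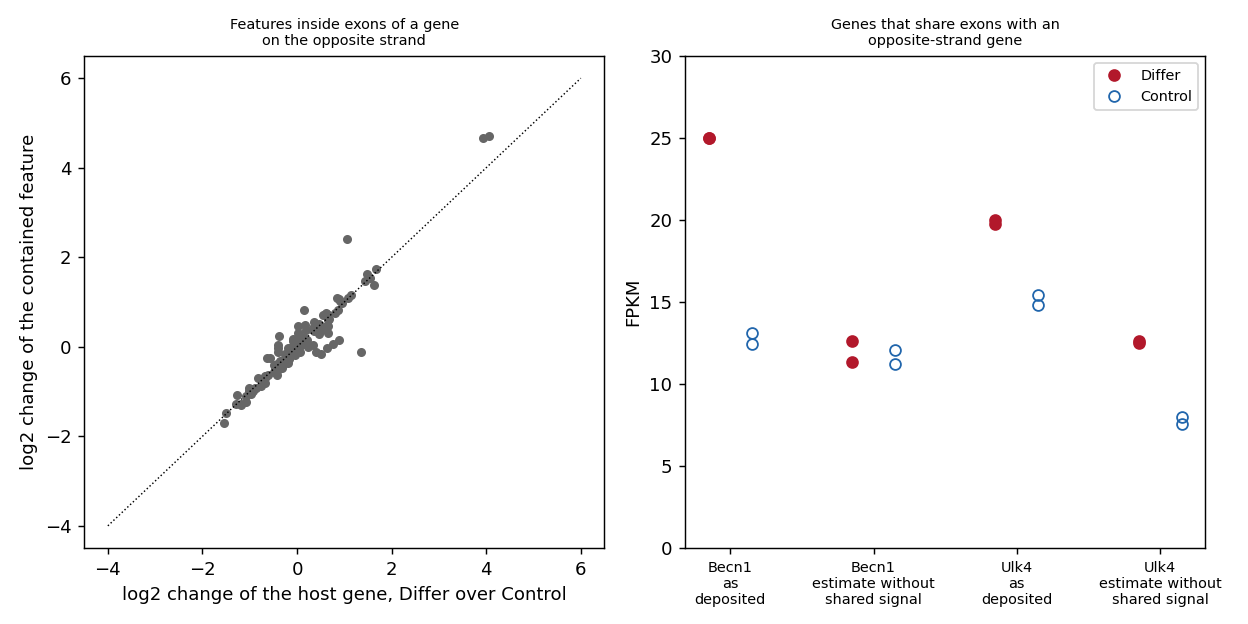
Left, log2 change (Differ over Control) of 117 features inside exons of an opposite-strand gene against that of the host gene, with the line of equality. Right, FPKM of Becn1 and Ulk4 per library as deposited and as estimated without the signal shared with the opposite-strand gene: the 12.6 and 11.4 FPKM of Becn1 in Differ overlap the 11.2 and 12.1 FPKM in Control.

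Among the 6 tested genes for lipid supply and PI3P binding, 3 rose and 0 fell in the main test. Of all tested features 29.6% rose and 27.0% fell, and the count for so few genes was not tested against those shares. Atg9a (chromosome 1, 75180860 to 75192196, minus strand), the scramblase of the vesicles that seed the membrane, had 5.78 and 6.17 FPKM in Differ, against 2.23 and 2.55 FPKM in Control (log2 fold change 1.04, SE 0.09; limma adjusted p = 1.42e-03). Its paralog Atg9b was near the lower limit, with 0.428 and 0.660 FPKM in Differ and 0.755 and 0.577 FPKM in Control, which overlap, on 30 to 58 fragments per library. Atg9a was thus the main ATG9 RNA in all 4 libraries, with Atg9a to Atg9b ratios of 13.5 and 9.36 in Differ and 2.95 and 4.43 in Control. The lipid transfer protein gene Atg2b had 17.5 and 18.3 FPKM in Differ and 13.7 and 13.4 FPKM in Control (log2 fold change 0.37; limma adjusted p = 3.01e-03), while the values of its paralog Atg2a overlapped, with 12.5 and 12.8 FPKM in Differ and 12.8 and 11.9 FPKM in Control. The PI3P-binding Wipi2, which recruits ATG16L1, had 12.9 and 12.7 FPKM in Differ and 9.15 and 8.29 FPKM in Control (log2 fold change 0.51; limma adjusted p = 3.45e-03). Wipi1 had 2.28 and 1.80 FPKM in Differ and 2.71 and 2.80 FPKM in Control and did not pass (log2 fold change -0.31, limma adjusted p = 0.0832). It passed as lower under 2 other settings, among them limma-voom (limma-voom adjusted p = 3.07e-03).

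The conjugation enzymes changed in both directions within one complex. ATG12 is joined to ATG5 by ATG7 and ATG10, and the product binds ATG16L1 to direct lipidation of ATG8 proteins. Atg5 (chromosome 10, 44268358 to 44364291, plus strand) had 9.00 and 8.75 FPKM in Differ, against 12.7 and 13.1 FPKM in Control (log2 fold change -0.49, SE 0.04; limma adjusted p = 1.59e-03). Atg16l1 (chromosome 1, 87755870 to 87792428, plus strand) had 6.43 and 5.96 FPKM in Differ and 9.33 and 9.76 FPKM in Control (log2 fold change -0.55, SE 0.06; limma adjusted p = 2.80e-03). Their partner Atg12 went the opposite way, with 20.7 and 19.4 FPKM in Differ and 15.3 FPKM in both Control libraries (log2 fold change 0.37, SE 0.04; limma adjusted p = 3.65e-03). Atg3, the E2-like enzyme that passes ATG8 proteins to lipid, had 10.0 and 9.65 FPKM in Differ and 7.58 and 7.19 FPKM in Control (log2 fold change 0.37; limma adjusted p = 5.61e-03). Atg7 (the shared E1-like enzyme), Atg10 and Atg16l2 did not pass, with log2 fold changes of 0.16, -0.18 and -0.12. The summed level of the 7 genes was 53.3 and 51.3 FPKM in Differ and 52.3 and 53.0 FPKM in Control, which overlap.

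The Atg5 promoter window (GRCm38.p6, chr10:44268089-44268388, plus strand) is shown because it holds the letters of an E-box core and of a cAMP response element close to the RefSeq start, both in capitals.
Atg5: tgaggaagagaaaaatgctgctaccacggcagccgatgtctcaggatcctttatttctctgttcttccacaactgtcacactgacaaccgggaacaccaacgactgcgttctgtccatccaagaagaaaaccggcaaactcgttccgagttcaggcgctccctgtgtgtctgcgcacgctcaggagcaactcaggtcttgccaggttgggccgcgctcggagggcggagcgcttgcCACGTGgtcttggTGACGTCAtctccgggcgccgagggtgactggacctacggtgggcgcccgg
RefSeq gave 37 windows for 33 of the 40 members. CACGTG was in 4 of the 37 windows (those of Atg14, Atg3, Atg5 and Atg7), against 7.15% of all 32851 windows of that length, and TGACGTCA in 2 (Atg16l2 and Atg5), against 1.79%. TAACNG was in 6 of the 37 and 23.3% of all windows, CCGGAAG in 5 and 8.86%, and CCAAT in 11 and 37.4%. A match describes letters in the window and not a bound site. The windows of Atg14 and Atg5, both lower in Differ, hold CACGTG, as does that of Atg3, which was higher. The RefSeq starts of Atg5 and Atg3 lie 19 and 44 bases from the GENCODE M21 gene start. Those of Atg14 and Atg7 lie 2215 and 27999 bases from it.

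The ATG4 proteases trim ATG8 proteins and release them from lipid. Of the 4 tested genes, 2 rose and 0 fell, beside 29.6% and 27.0% of all tested features. Atg4c (chromosome 4, 99193934 to 99259787, plus strand) had 5.12 and 5.67 FPKM in Differ, against 2.55 and 2.60 FPKM in Control (log2 fold change 0.84, SE 0.08; limma adjusted p = 2.03e-03). Atg4d had 8.48 and 8.73 FPKM in Differ and 6.66 and 6.36 FPKM in Control (log2 fold change 0.36, SE 0.05; limma adjusted p = 6.42e-03). The Atg4d exons overlap those of the opposite-strand gene Kri1, as treated above. Kri1 had 8.44 and 8.58 FPKM in Differ and 6.57 and 6.70 FPKM in Control. Atg4b, the enzyme with the broadest activity on ATG8 proteins, had 9.28 and 9.50 FPKM in Differ and 8.29 and 9.05 FPKM in Control and did not pass (limma adjusted p = 0.195). Atg4a had 1.18 and 1.68 FPKM in Differ and 1.87 FPKM in both Control libraries, on 56 to 103 fragments per library, and did not pass (limma adjusted p = 0.190). Atg4c made up 21.3% and 22.2% of the summed ATG4 FPKM in Differ and 13.1% in both Control libraries. Atg4a-ps was under the limit for testing, with 1 and 6 fragments in Differ and 5 and 10 in Control, and the sources used here do not say how reads were divided between it and Atg4a.

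The Atg4c window at the start that GENCODE M21 also gives (GRCm38.p6, chr4:99193684-99193983, plus strand) is shown for the ATG4 gene with the highest log2 fold change, with the letters of the MYB core on the reverse strand in capitals.
Atg4c: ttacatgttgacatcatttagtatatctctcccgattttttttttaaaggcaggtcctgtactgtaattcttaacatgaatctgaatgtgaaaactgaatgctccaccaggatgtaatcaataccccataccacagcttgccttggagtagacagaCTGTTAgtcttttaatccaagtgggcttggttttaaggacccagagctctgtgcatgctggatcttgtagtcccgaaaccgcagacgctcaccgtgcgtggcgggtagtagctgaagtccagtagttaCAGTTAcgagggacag

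In the ATG8 family, Gabarap rose and no other member passed in the main test. Gabarap (chromosome 11, 69991143 to 69994951, plus strand) had 46.4 and 48.3 FPKM in Differ, against 30.1 and 28.7 FPKM in Control (log2 fold change 0.67, SE 0.04; limma adjusted p = 6.01e-04). It was the most abundant ATG8 RNA per exon length in all 4 libraries, at 53.8% and 53.9% of the family's summed FPKM in Differ and 43.6% and 41.9% in Control. Map1lc3a had 11.0 and 13.8 FPKM in Differ and 9.62 and 9.27 FPKM in Control, with a wide spread between the Differ libraries (log2 fold change 0.35; limma adjusted p = 0.0588), and it passed without Differ library 1 (limma adjusted p = 0.0195). Map1lc3b, whose protein LC3B is the usual marker of autophagosomes, had 5.73 and 5.51 FPKM in Differ and 6.36 and 6.99 FPKM in Control (log2 fold change -0.21, limma adjusted p = 0.0577). Map1lc3b passed as lower under 4 other settings, among them limma-voom (limma-voom adjusted p = 1.19e-03). Gabarapl1 and Gabarapl2 had log2 fold changes of -0.14 and 0.08 (limma adjusted p = 0.0812 and 0.195). The Map1lc3a to Map1lc3b ratio was 1.92 and 2.51 in Differ and 1.51 and 1.33 in Control.

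**Figure D4:**
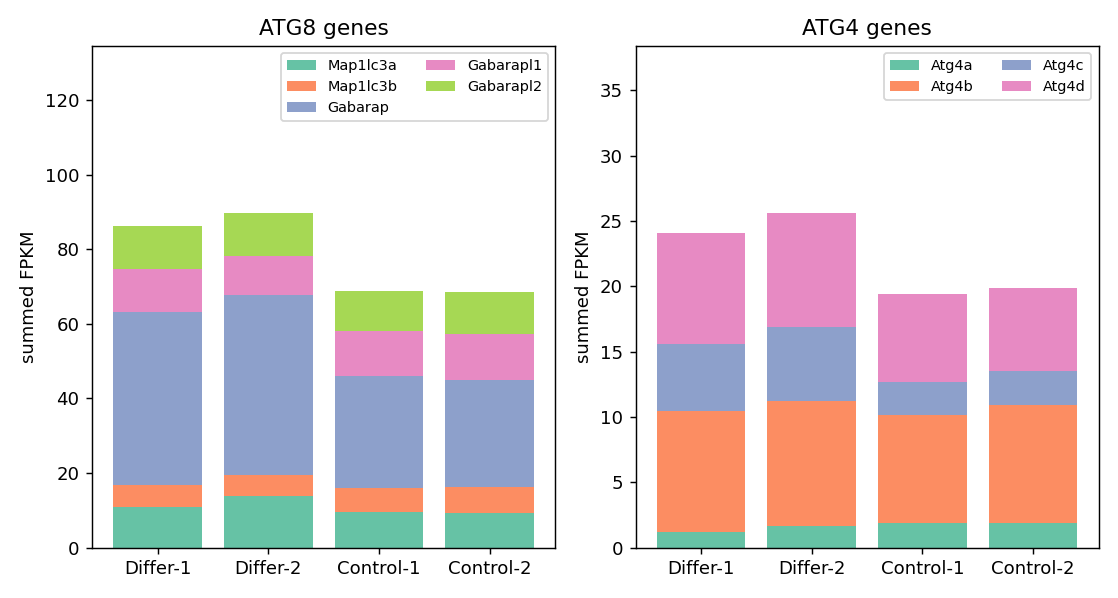
FPKM stacked by gene in each library for the ATG8 family (left) and the ATG4 proteases (right), Differ libraries left of Control libraries. Gabarap is the tallest band of the ATG8 family in each library and is taller in Differ (46.4 and 48.3 FPKM) than in Control (30.1 and 28.7 FPKM), as is Atg4c among the ATG4 genes.

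The cargo receptors differed little in sum, at 81.9 and 81.4 FPKM in Differ and 76.9 and 79.4 FPKM in Control. Sqstm1 (p62), the receptor whose RNA responds to oxidative stress through NRF2, had 41.8 and 41.1 FPKM in Differ and 39.9 and 41.3 FPKM in Control, which overlap (log2 fold change 0.03, SE 0.03; limma adjusted p = 0.467). Optn (optineurin), a receptor of mitophagy, had 3.93 and 3.78 FPKM in Differ, against 2.44 and 1.94 FPKM in Control (log2 fold change 0.61, SE 0.11; limma adjusted p = 0.0119). The Optn call ended without Differ library 1 or 2 (limma adjusted p = 0.0795 and 0.0711). Tax1bp1, a receptor of ubiquitinated cargo, had 19.5 and 19.4 FPKM in Differ and 15.4 and 16.1 FPKM in Control (log2 fold change 0.29; limma adjusted p = 5.05e-03). Nbr1, which works with SQSTM1, fell, with 16.7 and 17.1 FPKM in Differ and 19.1 and 20.0 FPKM in Control (log2 fold change -0.20; limma adjusted p = 0.0147). That call ended without Control library 2, Differ library 1 or Differ library 2 (limma adjusted p = 0.0662, 0.0776 and 0.0590).

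Genes that act beside this machinery also went both ways. Of 53 tested genes of a further autophagy list, 17 (32.1%) rose and 19 (35.8%) fell, with a median log2 fold change of -0.04. Those shares are near the 32.5% and 34.0% of protein-coding features, while 29.6% and 27.0% of all tested features rose and fell. The 4 with the smallest p all rose. Pink1, the kinase that starts mitophagy, had 22.7 and 21.6 FPKM in Differ and 5.36 and 4.82 FPKM in Control (log2 fold change 1.93; limma adjusted p = 1.84e-04). Sh3glb1, a membrane-bending partner of the beclin 1 complex, Tollip, a receptor of ubiquitinated cargo, and Retreg2, of the ER-phagy receptor family, had log2 fold changes of 1.29, 1.00 and 0.67. Without Control library 2 or Differ library 2 the lower genes of this list numbered 12 and 10.

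Of 59 tested lysosome genes, 14 (23.7%) rose and 22 (37.3%) fell, with a median of -0.13. For all tested features the shares were 29.6% and 27.0%, and for protein-coding ones 32.5% and 34.0%. The sphingolipid degradation genes Arsa and Gm2a rose, Arsa with 8.38 and 8.69 FPKM in Differ and 1.16 and 1.46 FPKM in Control, and Gm2a with 15.1 and 13.6 FPKM in Differ and 3.57 and 3.39 FPKM in Control (log2 fold changes 2.05 and 1.77; limma adjusted p = 3.59e-04 and 2.50e-04). The V-ATPase subunit gene Atp6v1g1 rose by 0.93 on the log2 scale, and the protease gene Ctsd fell, with 19.0 and 17.9 FPKM in Differ and 33.8 and 32.7 FPKM in Control. Lysosomal genes are abundant in macrophages, whose markers were also lower in Differ, and the part of those cells in the Ctsd value was not tested.

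Genes of mTORC1, AMPK and FOXO or MiT/TFE signalling set the activity of the ULK complex and the transcription of autophagy genes. Of 51 tested, 14 (27.5%) rose and 23 (45.1%) fell, with a median of -0.17. The shares were 29.6% and 27.0% for all tested features and 32.5% and 34.0% for protein-coding ones. The FLCN partner Fnip1 had 48.2 and 48.8 FPKM in Differ, against 17.3 FPKM in both Control libraries (log2 fold change 1.44; limma adjusted p = 9.12e-05), and its paralog Fnip2 had 10.3 and 10.2 FPKM in Differ, against 19.9 and 20.0 FPKM in Control (log2 fold change -0.90; limma adjusted p = 2.26e-04). The transcription factor gene Foxo3 fell by 1.08 on the log2 scale and the mTORC1 inhibitor gene Sesn3 rose by 1.44. Of the Sesn3 paralogs, Sesn2 fell by 1.08 and Sesn1 rose by 0.39. Leaving out 1 library at a time gave 14 (without Differ library 1) or 15 lower genes (without any other library). The differences between these lists were not tested.

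**Figure D5:**
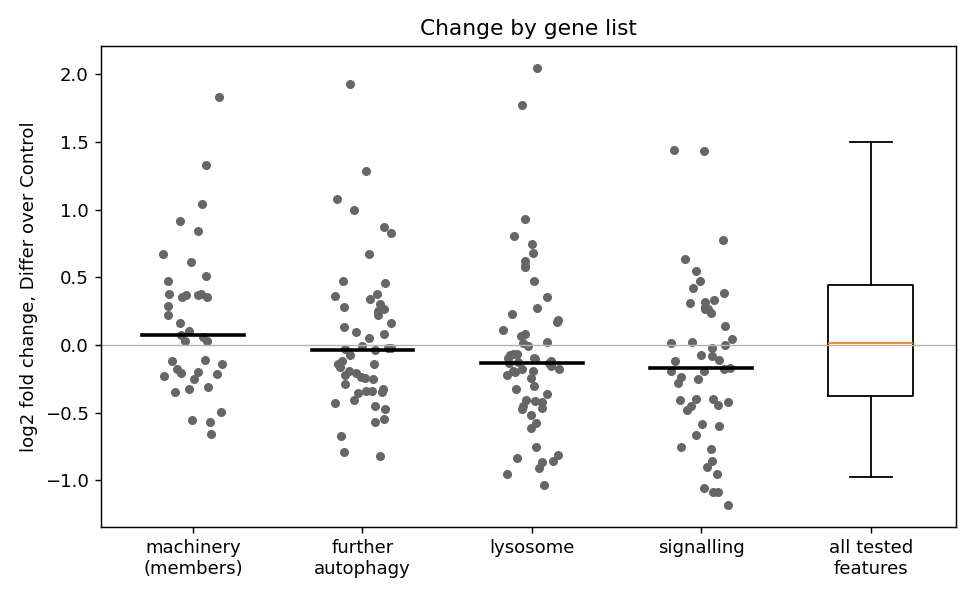
log2 fold change, Differ over Control, of each tested gene of the machinery and of 3 further lists, with the median as a bar, beside the spread of all tested features (box: quartiles; whiskers: 5th to 95th percentile). The medians of 0.08, -0.04, -0.13 and -0.17 all lie within the quartiles of all features, -0.38 and 0.44.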

How the data were processed

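Total RNA depleted of ribosomal RNA was sequenced in 2 Differ and 2 Control libraries, per the labels' protocols. The submitters' processing notes name HISAT2 and the build GRCm38. Annotation, counter and strand setting are not stated in the labels. FPKM were deposited by the authors per feature and library and were tested here. The deposited table also holds the authors' log2 fold change, p-value and adjusted p-value, whose test is unnamed in the labels. Its calls include all 24 members called here and 4 others: Map1lc3a as higher, and Map1lc3b, Uvrag and Wipi1 as lower.

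Features whose FPKM averaged 0.5 or more over the 4 libraries (23138) were tested on log2(FPKM + 1) by limma (version 3.58.1, R 4.3.3), two-sided, with group as the only term, eBayes with a trend, and Benjamini-Hochberg adjustment at 0.05. Adding 1 before taking logs understates the change of low genes. Sums and ratios of FPKM were not tested: with 2 libraries against 2, an exact permutation test cannot go below 0.333. GENCODE M21 exonic lengths matched 31536 identifiers, and with them between 96.19% and 96.23% of features under 300 fragments gave whole fragments within 0.05, which were used for limma-voom as an alternative. Gene positions are GRCm38, from GENCODE M21, and promoter windows are from RefSeq (GRCm38.p6). The members, their roles and the gene lists were chosen with earlier results of these data known. All members are accounted for. The genes named from the further autophagy, lysosome and signalling lists are those with the smallest p, up to 4 per list, and the paralogs of Sesn3. The estimate for genes that share exons and the count without them were chosen after seeing the data. The limma step was also run on simulated data with the same dispersion for every feature and far fewer changed features than were called here. That run therefore does not check the share of features called in these data. Other steps used Python 3.11.15, numpy 2.4.6 and pandas 2.3.3, and figures used matplotlib 3.10.9.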

Additional observations from a re-analysis of the deposited data

How the results depend on the processing

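Of the 16 higher members, 14 kept their call in all 12 alternatives, and Optn and Atg13 lost it in some. These alternatives do not address the exons that Becn1, Ulk4 and Atg4d share with opposite-strand genes. Of the 8 lower members, 3 kept it in all 12 (Pik3c3, Atg16l1 and Atg5). No called member changed direction. Of the 15 not called, 5 passed in some (Uvrag, Map1lc3b, Map1lc3a, Wipi1 and Gabarapl1). The counts of higher members ranged from 15 to 17 over these alternatives. Leaving out 1 library at a time gave 3 to 5 lower members, 10 to 15 lower genes of the further autophagy list and 14 to 15 of the signalling list. The same calls for all features numbered 13094, and 9438 to 10217 with 1 library left out, where the lone library of a group is assumed to vary like the others. After quantile normalization 12 members were lower. That setting moved all features down: their median log2 fold change was -0.0855, and 43.2% of its 13393 calls were higher, against 52.3% in the main test. With limma-voom on recovered fragments 11 members were lower, beside 31.4% of all features. It called 4 members that the main test did not, and none was lost.

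The replicate numbers were not shown to pair the libraries: the deviations of same-numbered libraries from their group means had a correlation of -0.000408 across 23138 features. A fit with the replicate block gave 16 higher and 7 lower members, with Ulk3 the member whose call ended (limma adjusted p = 0.0513). Depth limits Atg9b, Atg4a, Atg10 and Atg4a-ps, each under 110 fragments per library.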

Other observations

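Within the lysosome list, a split made after the values were seen gave 6 higher and 2 lower of 18 tested V-ATPase genes, and 8 higher and 20 lower of the 41 others. Across all tested features 29.6% rose and 27.0% fell, and across protein-coding ones 32.5% rose and 34.0% fell. The difference between the parts of this list was not tested. The V-ATPase genes summed to 313 and 311 FPKM in Differ and 260.0 and 253 FPKM in Control, and the others to 663 and 644 FPKM in Differ and 722 and 713 FPKM in Control. V-ATPase pumps acidify the lysosome and, in spermatids, the acrosome.

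Ankzf1, on the opposite strand, shares 46 exonic bases with Atg9a and had 10.3 FPKM in both Differ libraries and 3.82 and 3.70 FPKM in the Control libraries. On the same strand, Atg9a shares 31.8% of its exonic bases with Gm29253, listed at under 0.05 FPKM in all 4 libraries.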
